A study of Mus musculus with 15 samples.

Results

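Cold-inducible RNA-binding proteins and the splicing factors that act beside them were followed in mouse liver through 7 genes: Cirbp, Rbm3, Srsf3, Srsf5, Srsf7, Tra2a and Tra2b. The genes were chosen by name as temperature-sensitive factors, and all RefSeq transcripts with these symbols were taken, which gave 15 of the 28167 transcripts in the files. All 15 passed the filter of a mean of at least 10 reads per library. The study measured translation over the circadian day by ribosome profiling, which sequences the RNA fragments that ribosomes protect from digestion (footprints). Wild-type male C57BL/6N mice, 8 to 10 weeks old, were held in 12 h of light and 12 h of dark, moved to constant darkness for 24 h and killed every 4 h from circadian time 0 h (CT0) to 24 h (CT24). CT0 to CT12 is the subjective day and CT12 to CT24 the subjective night. Each time point had liver tissue of 2 mice, 14 libraries in all.

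CIRBP and RBM3 are small proteins with 1 RNA recognition motif whose abundance goes up when cells are cooled by a few degrees, and they bind mRNAs and affect their stability, translation and polyadenylation. In rodents, body temperature follows a daily cycle, and the liver level of Cirbp RNA is known to change with it in the opposite direction. SRSF3, SRSF5 and SRSF7 are SR proteins, which bind exonic enhancers through an RNA recognition motif and recruit the spliceosome through a domain rich in serine and arginine. TRA2A and TRA2B are SR-like proteins, related to the Drosophila sex determination factor Transformer 2, that bind purine-rich enhancers. SR proteins are phosphorylated by kinases of the CLK and SRPK families, and CLK activity is sensitive to temperature in the physiological range.

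The sequences that bear on the results are the upstream open reading frames (uORFs, an ATG with an in-frame stop inside the 5′UTR), since 5′UTR reads are one of the measurements, and the promoter matches to a heat or a cold motif. In the NCBI annotation of GRCm38.p6, the assembly that mm10 stands for, a uORF lay in the 5′UTR of Srsf5 and of Rbm3, and none in those of Cirbp, Srsf3, Srsf7, Tra2a and Tra2b. The 3 Srsf5 transcripts share a uORF of 27 bases, and the one with the longest 5′UTR has a further one of 72 bases at chr12:80945721-80945792. The uORF of Rbm3 has 144 bases and is in all 4 Rbm3 transcripts. Capitals mark the start codon, and in the first line also the stop codon.
Srsf5 uORF of 27 bases, chr12:80945575-80945601, plus strand: ATGtgtgttgtgtgtgtgtttgtgTAG
Srsf5 start of the second uORF: ttcttcATGgccgctcgg
Rbm3 start of the uORF, which lies at chrX:8145645-8145788, minus strand: caaccaATGagcacgcac
Srsf5 main start codon, chr12:80946585-80946608, plus strand: gccgggcatcATGagtggctgtcg
Rbm3 main start codon, chrX:8145044-8145067, minus strand: gccttctgccATGtcgtctgaaga
Tra2b main start codon, chr16:22265763-22265786, minus strand: acccggagtcATGagcgacagcgg

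RefSeq promoter windows of GRCm38.p6, from 250 bases before to 50 after a gene's start, were at hand for 6 of the 7 genes (all but Rbm3) and were searched on both strands for 4 motifs. The clock's E-box CACGTG and the D-box TTATGTAA were in no window of the 6 genes, and in 7.15% and 0.938% of all 32851 windows. A form of the heat shock element bound by HSF1 (GAA, TTC and GAA, each parted from the next by 2 bases of any kind) was in 0.603% of all windows and in that of Tra2b. TCCCCGCC, described as a mild cold response element of Cirbp, was in 5.38% of all windows and in those of Cirbp and Srsf7. A match is a description of the letters, shown in capitals.
Tra2b, chr16:22266192-22266219, minus strand: ttctctaGAAGGTTCCAGAAacgagtgt
Cirbp, chr10:80167589-80167616, plus strand: ctgTCCCCGCCtcctagtcgctagcggg
Srsf7, chr17:80207332-80207359, minus strand: aaaaaaagaaTCCCCGCCcgccgcctat

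The libraries held 40593197 to 90458783 counts, with a median of 56446208. These totals add all transcripts, and reads shared by transcripts of a gene, as in Rbm3, enter more than once. The number of distinct footprints is therefore lower, and CPM and RPKM use these totals. Each gene was represented by its transcript with the highest mean count, and levels over time are given as counts per 1000000 after TMM scaling (CPM), which sets libraries on 1 scale under the assumption that most transcripts do not differ. TMM factors ran from 0.736 to 1.46, and scaling by the total count alone would leave them out. The 18 transcripts of major urinary protein (Mup) genes held 34.2% to 57.6% of a library's counts. This share was lowest in CT0 replicate 1, with the factor 1.46, and highest in CT12 replicate 2, with the factor 0.736. Its part in the calls that differ between scalings was not tested. Summed markers of hepatocytes were at 37925 to 52686 CPM in the 14 libraries, and those of Kupffer cells, endothelial cells and stellate cells at 71.8 to 130, 86.3 to 134 and 109 to 176 CPM. Markers of cholangiocytes and lymphocytes summed to at most 13.5 and 5.20 CPM, and erythroid markers to 38.7 to 77.2 CPM. Markers of pancreatic acinar cells, 9 of the 10 listed being in the files, summed to 4039 CPM in CT20 replicate 2, to 79.9 CPM in CT24 replicate 2, to 40.5 CPM in CT12 replicate 2 and to 2.55 to 10.4 CPM elsewhere. In CT16 replicate 2 every nonzero count was even, against 48.9% to 50.4% in the other libraries, so its printed read counts may be 2 times the true ones. With its counts halved, 1942 transcripts and the 3 genes below were called, as against 1947 and 3. In bulk tissue, fewer cells of a type and less RNA per cell cannot be told apart.

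The question over circadian time was whether footprints on each gene followed a 24 h cycle. Of the 7 genes, 3 passed the test, edgeR's quasi-likelihood F test of a 24 h cosine with Benjamini-Hochberg adjustment over 17299 transcripts, and 4 did not. Of the main transcripts of all genes, 11.2% passed (1321 of 11747), and of all transcripts 11.3% (1947). Of the 3 genes called, 1 (Cirbp) peaked between CT3 and CT9, where 1.60% of all main transcripts were called, and 2 (Tra2a and Tra2b) between CT21 and CT3, where 3.09% were. The fitted difference between peak and trough, in log2 units, had a median of 1.17 over the 7 genes and of 0.44 over all transcripts tested.

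**Figure D1:**
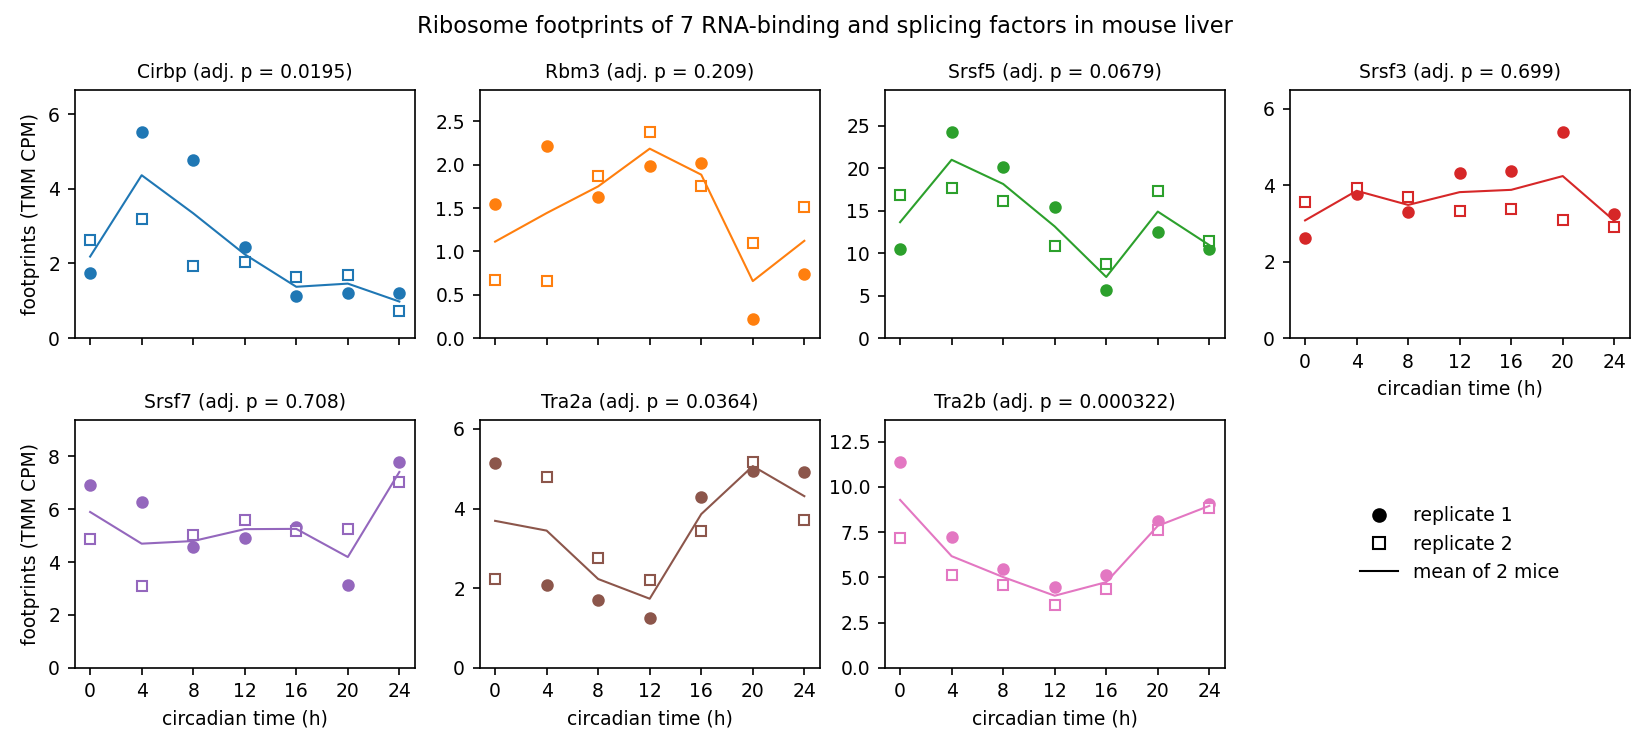
Footprints on the 7 genes, in TMM-scaled CPM (y axis, from 0, with its own range in each panel), against circadian time in hours (x axis). Filled circles are replicate 1, open squares replicate 2 and lines the mean of the 2 mice; Cirbp has its highest mean at CT4 (4.37 CPM), Rbm3 at CT12 (2.18 CPM) and Tra2b at CT0 (9.28 CPM).

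Cirbp (chr10:80167839-80171655, plus strand) showed the widest cycle of the 7 genes. The 2 livers gave 1.75 and 2.62 CPM at CT0, 5.53 and 3.20 CPM at CT4, 4.76 and 1.93 CPM at CT8, and 2.44 and 2.05 CPM at CT12. In the night they gave 1.12 and 1.63 CPM at CT16, 1.22 and 1.70 CPM at CT20, and 1.22 and 0.739 CPM at CT24. Every library from CT0 to CT12 was thus above every library from CT16 to CT24. The lowest of the former was CT0 replicate 1 (1.75 CPM) and the highest of the latter CT20 replicate 2 (1.70 CPM). This split sets CT0 apart from CT24, the same phase. It did not hold with total-count scaling, where CT12 replicate 2 was at 1.51 CPM and CT20 replicate 2 at 1.71 CPM. The mean at CT4 was 4.45-fold that at CT24, and these pairs did not overlap. The fitted difference between peak and trough was 1.72 on the log2 scale (SE 0.50), or 3.30-fold, with a peak at CT6.66 (SE 1.07 h) and an adjusted p of 0.0195 in edgeR's test. The 2 livers of CT8 were the furthest apart, and the counts behind these values were 42 to 381 reads per library. CT0 and CT24 are the same circadian phase 1 day apart, and Cirbp was at 2.19 ± 0.613 CPM (SD, n = 2) in the former and at 0.981 ± 0.342 CPM (SD, n = 2) in the latter. The call was lost with scaling by the total count (adjusted p = 0.0538 in edgeR), with the 6 circadian times as a factor (0.0727 in edgeR), without CT4 replicate 1 (0.0657) and without CT8 replicate 1 (0.0786). The peak time lay between CT5.66 and CT7.19 in all cosine fits that were run.

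Rbm3 (chrX:8142356-8145880, minus strand) is the closest relative of Cirbp among the 7 genes and had the lowest CDS density. It gave 1.55 and 0.675 CPM at CT0, 2.22 and 0.664 CPM at CT4, 1.63 and 1.87 CPM at CT8, and 1.99 and 2.38 CPM at CT12. It gave 2.02 and 1.75 CPM at CT16, 0.215 and 1.10 CPM at CT20, and 0.734 and 1.51 CPM at CT24. The 6 libraries of CT8, CT12 and CT16 were all above the CT20 and CT24 pairs, while the 2 livers of CT0, of CT4 and of CT20 were far apart, those of CT20 the most by ratio. The mean at CT12 was 3.31-fold that at CT20, which rests on replicate 1 of CT20: the mean at CT12 was 2.18 CPM and replicate 2 of CT20 alone 1.10 CPM. The fitted difference was 1.18 on the log2 scale (SE 0.60) with a peak at CT10.5, and it did not pass edgeR's test (adjusted p = 0.209), nor did it under any alternative tried (0.122 to 1.00). The library of CT20 replicate 1 held 9 reads on Rbm3, against 35 to 161 in the others. A gene on the opposite strand, Rbm3os, overlaps 1 exon, and reads of it may be counted with Rbm3. A pseudogene, Rbm3-ps, is annotated, and since only uniquely aligned reads were kept, reads that match both are left out.

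Of the SR proteins Srsf3, Srsf5 and Srsf7, none passed the test, and Srsf5 came closest. Srsf5 (chr12:80945499-80950506, plus strand) gave 10.5 and 16.8 CPM at CT0, 24.3 and 17.7 CPM at CT4, 20.2 and 16.1 CPM at CT8, and 15.4 and 10.9 CPM at CT12. It gave 5.67 and 8.72 CPM at CT16, 12.5 and 17.3 CPM at CT20, and 10.5 and 11.4 CPM at CT24. The CT16 pair was below all other libraries and the mean at CT4 was 2.92-fold that at CT16. The same pair had the lowest summed markers of endothelial (101 and 86.3 CPM) and stellate cells (113 and 109 CPM). Its Kupffer cell markers were at 71.8 and 101 CPM, the former the lowest of all libraries. The part of the cell mixture in the low Srsf5 was not tested. The fitted difference was 1.00 on the log2 scale (SE 0.36) with a peak at CT5.16 (SE 1.11 h) and an adjusted p of 0.0679 in edgeR's test, just outside the threshold. CT20 replicate 2, the library with the high acinar markers, held the highest Srsf5 value of the night, and without it the adjusted p was 0.00567 in edgeR; the part of the acinar RNA in this result was not tested. Srsf5 also passed with the total count as scale (0.0484), with DESeq2's likelihood ratio test (0.0169) and with time as a factor of 6 or 7 levels (0.0127 and 0.0192 in edgeR).

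Srsf3 (chr17:29032660-29043372, plus strand), the smallest SR protein, had the smallest fitted difference of the 7 genes. It lay between 2.61 CPM in CT0 replicate 1 and 5.40 CPM in CT20 replicate 1, with a median of 3.47 CPM. Its fitted difference was 0.26 on the log2 scale (SE 0.20; adjusted p = 0.699 in edgeR's test). The highest and the lowest single library were a replicate of CT20 and of CT0, and the pairs of the highest and the lowest time mean overlapped. Srsf3 has an annotated pseudogene, Srsf3-ps, and reads that match both are likewise left out.

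Srsf7 (chr17:80200080-80207305, minus strand), an SR protein with a zinc knuckle, lay between 3.11 CPM in CT4 replicate 2 and 7.81 CPM in CT24 replicate 1, with a median of 5.22 CPM. The CT24 pair (7.81 and 7.02 CPM) was above the other 12 libraries, with CT0 replicate 1 next at 6.91 CPM. Its fitted difference was 0.28 on the log2 scale (SE 0.29), and it did not pass edgeR's test (adjusted p = 0.708). A fitted cosine takes CT0 and CT24 as the same phase, and at CT0 the 2 livers gave 6.91 and 4.89 CPM.

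Tra2b (chr16:22244552-22266005, minus strand) had the smallest p of the 7 genes. The 2 livers gave 11.4 and 7.16 CPM at CT0, 7.22 and 5.12 CPM at CT4, 5.45 and 4.58 CPM at CT8, and 4.49 and 3.48 CPM at CT12. They gave 5.13 and 4.34 CPM at CT16, 8.10 and 7.59 CPM at CT20, and 9.07 and 8.83 CPM at CT24. The means were thus lower at each step from CT0 to CT12 and higher at each step from there to CT24, and all libraries of CT20 and CT24 were above all of CT4 to CT16. The mean at CT0 was 2.33-fold that at CT12. The fitted difference was 1.17 on the log2 scale (SE 0.17), or 2.25-fold, with a peak at CT23.5 (SE 0.625 h) and an adjusted p of 3.22e-04 in edgeR's test. It passed under every alternative tried, with adjusted p from 1.11e-07 to 0.0438. These include JTK_CYCLE, a rank test for rhythms, with q of 0.0438 on TMM-scaled and 0.0292 on total-count CPM, where 3.68% and 2.22% of transcripts passed. By JTK_CYCLE's own adjusted P, which is not corrected over transcripts, Tra2a also passed on TMM-scaled CPM (0.0196) but not on total-count CPM (0.0636), and Cirbp on neither (0.126 and 0.823), where 17.7% and 22.2% of transcripts passed. At CT24 Tra2b was back at 8.95 ± 0.167 CPM (SD, n = 2), against 9.28 ± 3.00 CPM (SD, n = 2) at CT0. CT0 replicate 1, the library with the most Tra2b, also had the highest summed markers of Kupffer, endothelial, stellate and cholangiocyte cells. The cholangiocyte markers were at 13.5 and 5.39 CPM at CT0, 4.87 and 4.84 CPM at CT4, 2.34 and 3.87 CPM at CT8, and 2.60 and 2.87 CPM at CT12. From CT16 on, the same markers were at 4.03 and 3.27 CPM at CT16, 3.11 and 5.97 CPM at CT20, and 7.99 and 5.02 CPM at CT24. Without CT0 replicate 1 the adjusted p of Tra2b was 0.00126 in edgeR, and without CT24 replicate 1 it was 0.00117. The part of the cell mixture in the cycle of Tra2b was not tested.

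Tra2a (chr6:49243921-49264052, minus strand), the paralog of Tra2b, was also lowest at CT12 but with livers further apart. It gave 5.14 and 2.24 CPM at CT0, 2.09 and 4.80 CPM at CT4, 1.71 and 2.75 CPM at CT8, and 1.26 and 2.21 CPM at CT12. It gave 4.29 and 3.43 CPM at CT16, 4.95 and 5.18 CPM at CT20, and 4.91 and 3.71 CPM at CT24. All 6 libraries of CT16 to CT24 were above all 4 of CT8 and CT12, whereas at CT0 and at CT4 1 liver was high and 1 low. The mean at CT20 was 2.92-fold that at CT12. The fitted difference was 1.28 on the log2 scale (SE 0.38), with a peak at CT21.5 (SE 1.14 h) and an adjusted p of 0.0364 in edgeR's test. The call was lost when any 1 of 9 libraries was left out (adjusted p in edgeR up to 0.109, without CT8 replicate 1). Among them is CT20 replicate 2, the library with the acinar markers, which held the highest Tra2a value (0.0663 without it). The call was also lost without the CT24 pair (0.0718) and with time as a factor of 6 or 7 levels (0.118 and 0.190). The peak time lay between CT20.6 and CT22.0 in all cosine fits.

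The ratio of 2 genes within a library does not depend on the scaling between libraries. Cirbp over Tra2b, with whole-transcript counts, was 0.766 and 0.627 at CT4, 0.874 and 0.422 at CT8, and 0.545 and 0.591 at CT12. It was 0.152 and 0.226 at CT20, 0.136 and 0.0846 at CT24, and 0.154 and 0.367 at CT0. All 6 libraries of CT4 to CT12 had a higher ratio than the other 8, of which CT16 replicate 2 had the highest (0.378). A cosine fitted to the log2 ratio had a difference of 2.34 between peak and trough (SE 0.52) with a peak at CT8.83 (SE 0.847 h). Srsf5 over Tra2b was 3.14 to 3.71 in the 6 libraries of CT4, CT8 and CT12 and 0.923 to 2.34 in the other 8, with a fitted difference of 1.56 (SE 0.39). Tra2a over Tra2b was between 0.281 in CT12 replicate 1 and 0.937 in CT4 replicate 2, and its fitted difference of 0.72 had an SE of 0.48. These ratios were formed from genes whose values had been seen and are descriptions.

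**Figure D2:**
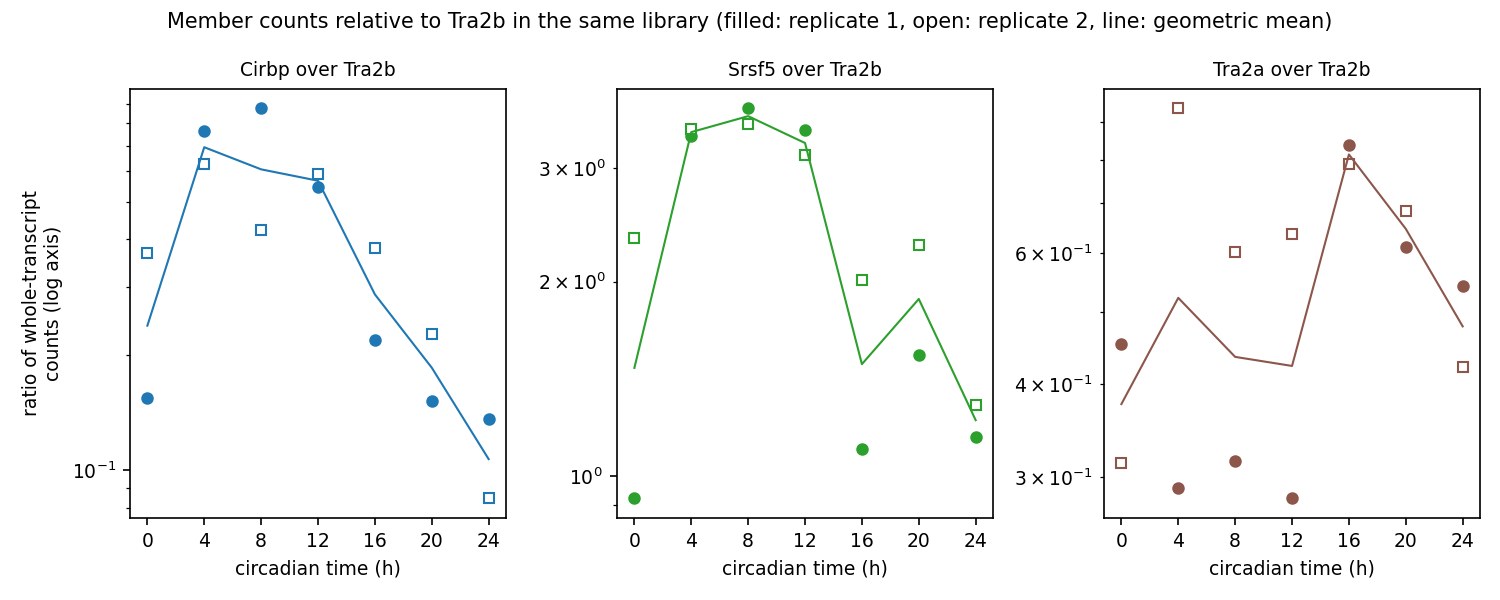
Counts of Cirbp, Srsf5 and Tra2a divided by those of Tra2b in the same library (y axis, log scale, a range of its own in each panel) against circadian time in hours (x axis), with filled circles for replicate 1, open squares for replicate 2 and lines for the geometric mean of the 2 mice. The Srsf5 ratio has a plateau of 3.14 to 3.71 from CT4 to CT12, while the replicates of the Tra2a ratio are apart at CT4, CT8 and CT12.

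Across the 14 libraries the members did not form 1 group. Pearson's r of log2(CPM + 1) was 0.77 between Cirbp and Srsf5 and 0.53 between Tra2a and Tra2b, but 0.21 between the 2 cold-inducible genes, Cirbp and Rbm3, and -0.59 between Cirbp and Tra2a. The most negative was Srsf3 with Srsf7, at -0.69. The points share libraries and their scaling, and these are descriptions. Of the 8221 or 8222 other genes whose main transcript averaged 100 counts or more, those most like Cirbp were Nars2 (r = 0.87), Tbc1d17 (0.86) and Vrk3 (0.85). Those most like Tra2b were Bmp1 (0.92), Ppp1r3c (0.91) and Bhmt2 (0.90), and those most like Tra2a were Acsl1 (0.87), Ahcyl1 (0.87) and Ppil1 (0.86). For Srsf5 they were Samd9l (0.92), Tcf20 (0.89) and Arhgap18 (0.89), and for Rbm3 Slc30a7 (0.86), Sec23ip (0.85) and Krr1 (0.83). For Srsf3 they were Tpd52 (0.85), Atg14 (0.80) and Tapbpl (0.78), and for Srsf7 Rab3a (0.79), Cbx5 (0.75) and Nfxl1 (0.74).

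Other genes of the same machinery were taken from lists. Of the 8 other SR proteins 7 were tested (Srsf12 was too low), and 2 passed edgeR's test, against the 11.2% of all main transcripts. They were Srsf1 (log2 difference 0.82, SE 0.15, peak CT22.3, adjusted p = 0.00370) and Srsf4 (0.74, SE 0.18, peak CT9.77, adjusted p = 0.0252), the latter not with total-count scaling (0.760). The same 2 had an unadjusted p under 0.05, and the median difference of that list was 0.26. Of the 6 SR protein kinases (Clk1 to Clk4, Srpk1 and Srpk2), edgeR called 0, and 0 had an unadjusted p under 0.05, against 24.9% of all main transcripts (2921 of 11747), with a median difference of 0.39. Of the 11 other RBM genes 4 had an unadjusted p under 0.05, beside 24.9% of all main transcripts, and the list median was 0.35. After adjustment 3 passed, beside 11.2% of all main transcripts. They were Rbmx, the X-linked hnRNP G that can bind TRA2 proteins (1.06, SE 0.24, peak CT23.9, adjusted p = 0.0234), Rbm25 (0.95, SE 0.17, peak CT16.5, adjusted p = 0.00280) and Rbm14 (0.83, SE 0.20, peak CT16.7, adjusted p = 0.0178). Rbm14 did not pass with total-count scaling (0.0718).

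Of the 7 genes with a cold shock domain, a fold other than the RNA recognition motif of Cirbp, 4 were tested. Of these, 2 had an unadjusted p under 0.05 and 1 passed, beside 24.9% and 11.2% of all main transcripts. The one that passed was Ybx1, with a difference of 0.71 on the log2 scale (SE 0.17), a peak at CT19.0 and an adjusted p of 0.0250 in edgeR. It was not called without CT16 replicate 2, where 0 of the 4 passed, while with total-count scaling 2 passed, Ybx1 and Ybx3. Of the 18 hnRNP genes, which bind nascent transcripts and often oppose SR proteins, 3 passed, beside 11.2% of all main transcripts, with 8 at an unadjusted p under 0.05 and a list median of 0.39. They were Hnrnpa1 (0.95, SE 0.20, peak CT19.5, adjusted p = 0.0213), Hnrnpl (0.63, SE 0.15, peak CT7.07, adjusted p = 0.0357) and Hnrnpc (0.57, SE 0.12, peak CT21.7, adjusted p = 0.0237). Hnrnpl was not called with total-count scaling (0.392), under which its peak moved to CT3.69, nor without CT16 replicate 2. Without CT20 replicate 2, Hnrnpa1 and Hnrnpc were not called and Hnrnpdl was. Hnrnpa0 was called with total-count scaling, and Hnrnpa0 and Hnrnpf with upper-quartile scaling, which gave 5 of 18. In JTK_CYCLE on total-count CPM, which 2.22% of all transcripts passed, Srsf1 (q = 0.0397) and Rbmx (q = 0.0227) passed of the genes called in these lists. Srsf4, Rbm14, Rbm25, Ybx1, Hnrnpa1, Hnrnpl and Hnrnpc did not pass there. Hnrnpa3, which edgeR did not call (adjusted p = 0.444), passed in JTK_CYCLE (q = 0.0397). Of the 10 core splicing factors edgeR called 0, while 4 had an unadjusted p under 0.05, beside 24.9% of all main transcripts, and their median was 0.34.

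A list of 16 heat shock chaperones and their partners holds heat-induced and constitutive members. Of these, 14 had an unadjusted p under 0.05, beside 24.9% of all main transcripts, and the list median was 1.33. After adjustment 11 passed edgeR's test, beside 11.2% of all main transcripts. The largest were Hspb1, a small heat shock protein (2.26, SE 0.48, peak CT19.7, adjusted p = 9.10e-04), Hspa8, the constitutive HSP70 (2.19, SE 0.48, peak CT17.7, adjusted p = 0.00287) and Hsph1, an HSP110 (1.94, SE 0.45, peak CT17.8, adjusted p = 0.00311). All 3 passed with each of the 4 scalings and without CT20 replicate 2 or CT16 replicate 2, but none did in JTK_CYCLE on total-count CPM (q of 0.0508, 0.342 and 0.138). Of the 11 called chaperones, 1 passed there, Serpinh1, a collagen chaperone (q = 0.0292), beside 2.22% of all transcripts. Hspa8 had its highest mean at CT16 (239 CPM) and its lowest at CT4 (37.2 CPM), Hsph1 its highest at CT16 (74.3 CPM) and its lowest at CT8 (12.8 CPM), and Hspb1 its highest at CT20 (11.1 CPM) and its lowest at CT12 (2.06 CPM). The fitted peak of Cirbp thus fell in the subjective day and those of these 3 chaperones in the subjective night. The phases are from the same libraries and the difference between them was not tested.

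**Figure D3:**
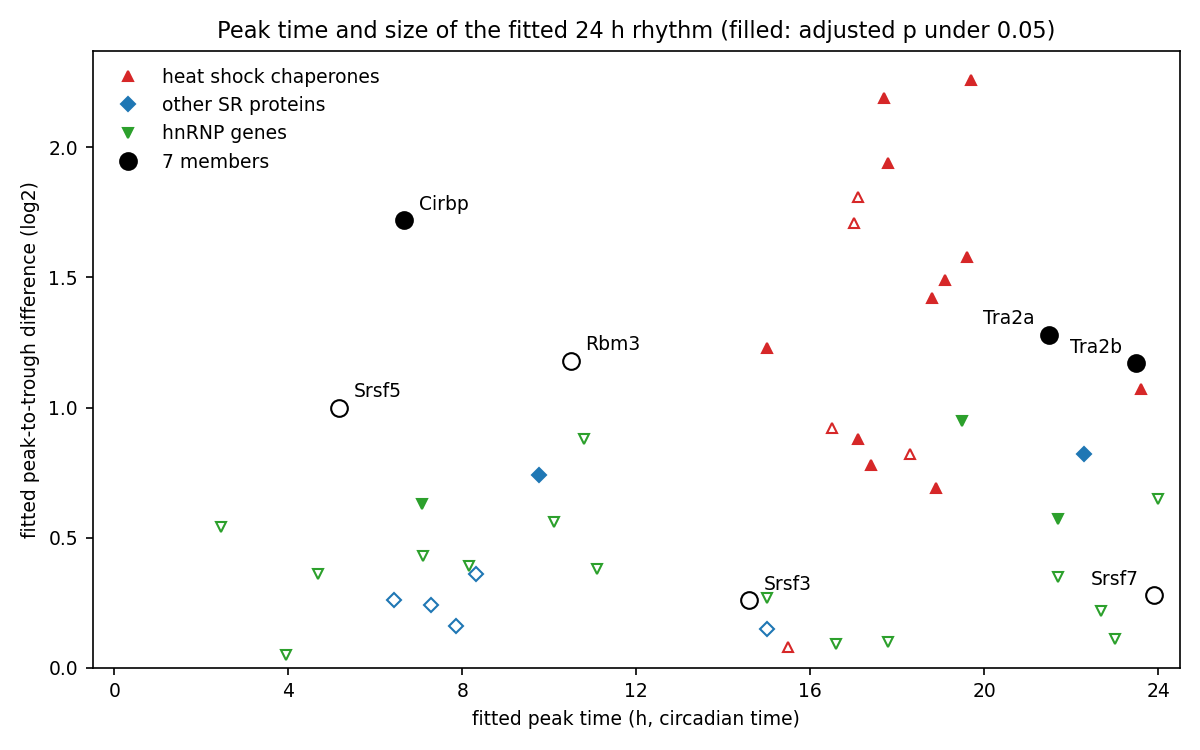
Fitted peak time in circadian hours (x axis) against the fitted log2 difference between peak and trough (y axis) for the 7 genes (black circles), heat shock chaperones, other SR proteins and hnRNP genes. Filled symbols passed edgeR's test at an adjusted p under 0.05; Cirbp, at CT6.66 and 1.72, peaks by day, the 10 called chaperones other than Serpinh1 between CT15.0 and CT19.7, and Tra2b lies beside Serpinh1 at CT23.6.

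Levels of different genes were compared per length, as CDS reads per kilobase and per 1000000 counts of the library (RPKM). The order of the mean CDS densities was Srsf5 at 12.5 ± 4.67 RPKM, Srsf7 at 7.25 ± 2.74, Srsf3 at 6.00 ± 1.38, Tra2b at 5.83 ± 3.17, Tra2a at 3.60 ± 2.02, Cirbp at 3.34 ± 1.84 and Rbm3 at 2.55 ± 1.31 RPKM (SD, n = 14). The median of all 17023 transcripts that averaged 10 CDS reads or more was 2.42 RPKM, so that Rbm3 lay at percentile 51.2 and Srsf5 at percentile 81.7. Within libraries, Srsf5 was above Srsf7 in 11 of 14 and Tra2b above Tra2a in 13 of 14, with a mean log2 ratio of 0.80 (SD 0.76) and 0.79 (SD 0.79). These means are about as large as the SDs of the ratios. The order of the other neighbours changed more often: Srsf7 was above Srsf3 in 9 of 14 libraries, Srsf3 above Tra2b in 8, Tra2a above Cirbp in 8 and Cirbp above Rbm3 in 8.

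**Figure D4:**
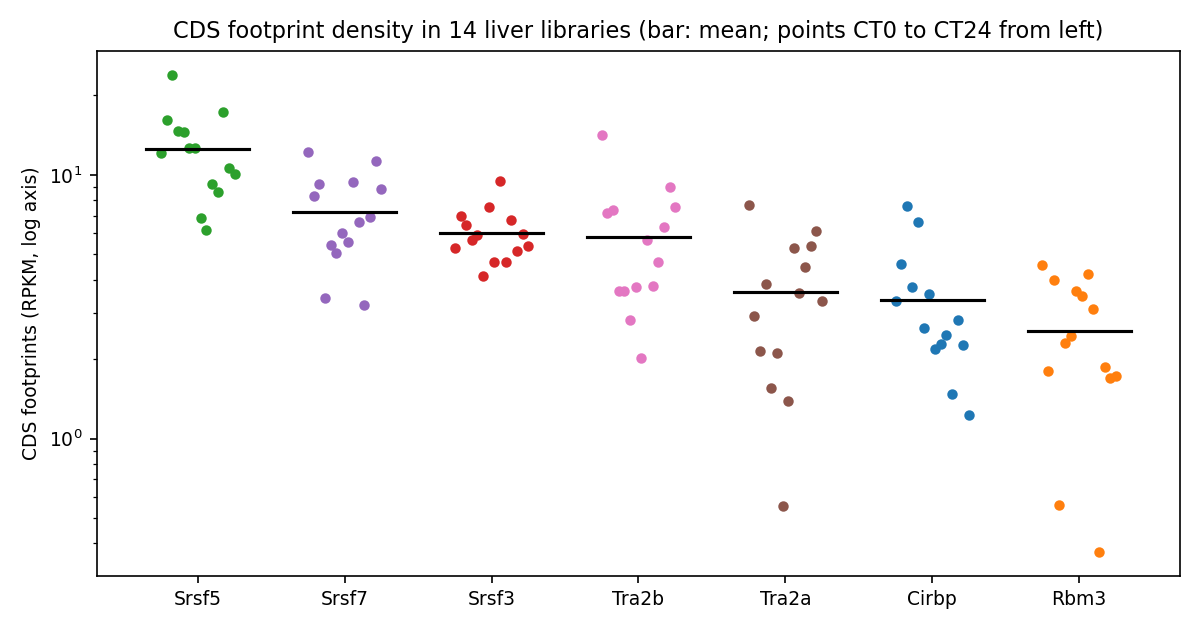
CDS footprint density in RPKM (y axis, log scale) of each gene in the 14 libraries, which run from CT0 at the left to CT24 at the right within a gene, with a bar at the mean. The means go from 12.5 RPKM for Srsf5 to 2.55 RPKM for Rbm3, and the ranges of all neighbouring genes overlap.

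Footprints fell in the 5′UTRs of these genes at shares above the median transcript's. Over all libraries, the 5′UTR held 27.3% of the 5′UTR and CDS reads of Srsf5, 26.7% of Tra2b, 22.6% of Cirbp, 18.2% of Rbm3, 16.4% of Srsf3, 15.8% of Tra2a and 5.52% of Srsf7. The median of all transcripts was 3.79%, and 6 of the 7 genes were above percentile 80, from 83.7 for Tra2a to 93.1 for Srsf5. Per base, the 5′UTR of Tra2b was denser than its CDS in 14 of 14 libraries, 2.08-fold with the reads of all libraries added, and that of Cirbp in 13 of 14, 1.85-fold. The median of all transcripts was 0.351-fold. Neither Tra2b nor Cirbp has an ATG-started uORF in the annotation. Of the 2 genes with one, Rbm3 was denser in the 5′UTR in 2 of 14 libraries (0.579-fold), and Srsf5 in 7 of 14 with its main transcript (0.972-fold) and in 10 of 14 with each of its other transcripts (1.30-fold and 1.32-fold). The 5′UTR lengths in the files differ from the annotation for Cirbp (83 against 84 bases), Srsf3 (130 against 129), Rbm3 (181 against 258), Srsf5 (315 against 319) and Tra2b (153 against 229), and the densities use those of the files. The files hold no positions within a region, so reads on a uORF could not be told from other 5′UTR reads.

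The ratio of the 5′UTR to the CDS of Tra2b also had the smallest SD between libraries (0.45 in log2 units), with shares from 17.7% in CT4 replicate 1 to 37.8% in CT20 replicate 1. Those of Rbm3 (0 to 54.3%) and Tra2a (0 to 57.8%) rest on 0 to 42 and 0 to 59 reads in the 5′UTR of a library. For Tra2a, the library of CT12 replicate 1 with the 57.8% is also that with its lowest CDS density, 0.555 RPKM. The ratio of 5′UTR to CDS reads did not cycle in a way that the test could call: limma called 0 of 7640 transcripts after Benjamini-Hochberg adjustment, and 377 (4.93%) had an unadjusted p under 0.05. This does not show that the ratios were constant. Srsf7 had the lowest unadjusted p of the 7 genes (0.0439 in limma, adjusted p = 0.809), with a fitted log2 difference of 1.96 on 2 to 50 reads in the 5′UTR per library. Tra2b, with the smallest p for the cycle of its reads, had a fitted difference of 0.10 in this ratio (adjusted p = 0.991 in limma).

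**Figure D5:**
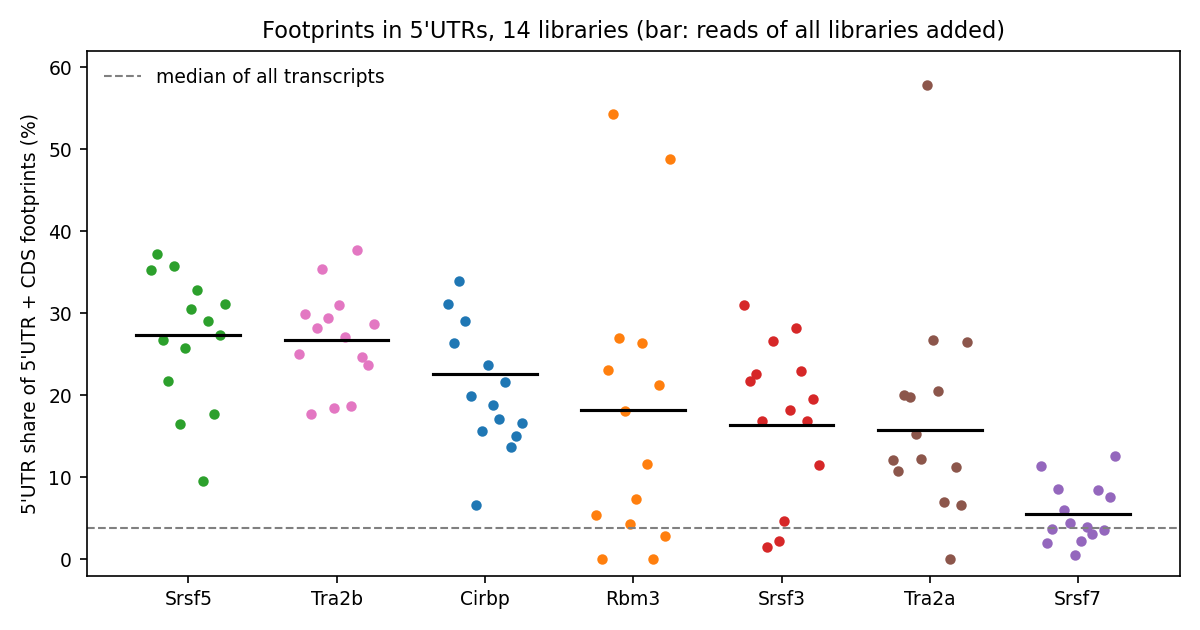
Share of footprints in the 5′UTR among those of 5′UTR and CDS, in percent (y axis), for each gene in the 14 libraries (points, CT0 to CT24 from the left within a gene), with a bar at the share of all libraries added and a dashed line at the median of all transcripts (3.79%). Points of Tra2b stay between 17.7% and 37.8%, while those of Rbm3 and Tra2a spread from 0 to over 50%.

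Transcripts of a gene share most of their reads, and the difference between their counts shows what lies in the bases that only 1 of them has. The long 5′UTR of Srsf5 has 130 bases more than the shortest, at chr12:80945669-80945798, and these include the second uORF. The difference was 671 reads, 16 to 138 in a library and above 0 in all 14, against 2644 in the rest of the 5′UTR. This is 5.16 reads per base against 14.3, or 0.361-fold. Per time, the 2 libraries gave 25 and 78 reads at CT0, 40 and 64 at CT4, 138 and 29 at CT8, 74 and 54 at CT12, 16 and 18 at CT16, 28 and 37 at CT20, and 20 and 50 at CT24. The CT16 pair was the lowest, as it was for the whole transcript.

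Srsf7 has 4 transcripts that differ in the CDS. An exon stretch of 36 bases at chr17:80202169-80202204, absent from 1 of them, held 331 reads, with 63 in CT24 replicate 2 and 0 in CT12 replicate 1. This is 8.95 reads per base of the files' length against 5.75 in the rest of the CDS. The 9 bases of the alternative splice site at chr17:80204122-80204130 (minus strand), GTATTTCCA (in capitals throughout, since all of it differs), held 11 reads in 5 libraries, or 1.22 per base against 5.91. The 33 bases at chr17:80204122-80204154 held 99 reads, or 3.00 per base against 5.99. In Rbm3, transcripts with and without 1 AAG codon at chrX:8143330-8143332 differed by 1 read, too few to tell the forms apart. The shortest of these stretches are shorter than a footprint, and how reads across exon junctions were aligned is not given. The densities are thus no measure of how often a splice form was used.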

How the data were processed

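Ribosome-protected fragments of 14 mouse livers were used. For 28167 RefSeq transcripts the authors deposited raw read counts of each region (5′UTR, CDS, 3′UTR), without normalization. Per the study's methods, reads were clipped, cleared of rRNA, aligned to mm10, kept where they matched exactly and at a unique location, and assigned to an A site, and the submitters' processing notes name Bowtie2 2.1.0.0, SAMtools 0.1.19.0 and FastQC. How reads shared by transcripts of a gene were counted, and on which strand, is not given in the sources used here. Groups follow the time in the sample names. For the last pair the names read CT24 and another label CT00, and the names were followed. CT16 replicate 2 has a further sequencing run, whose values the labels place in the same table, and was counted as 1 sample.

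Symbols came from RefSeq (27840 transcripts matched) and structures from the GRCm38.p6 annotation. Region counts were added per transcript. Those with a mean of at least 10 were fitted with a 24 h cosine and sine in edgeR 4.0.16 (R 4.3.3), with TMM scaling and Benjamini-Hochberg adjustment over all. SEs and peak-time errors come from a least-squares fit of log2 CPM. log2((5′UTR + 0.5)/(CDS + 0.5)) of the counts was tested in limma 3.58.1, where both regions had a mean of at least 10. DESeq2 1.42.0 and JTK_CYCLE, written anew in Python 3.11.15 with lags every 2 h, served as alternatives, beside other scalings, filters, time factors, pseudocounts and libraries left out. Each SD at a time point comes from 2 livers. Reads carry no molecular identifiers, so the precision of low counts is overstated.

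Both tests were tested on simulated data, where each missed part of the smaller simulated rhythms. A gene that was not called is thus not shown to be without a rhythm. Genes were named by rule: the 7 members, the up to 3 largest called per list and the 3 most alike per member. Serpinh1, Ybx3, Hnrnpdl, Hnrnpa0, Hnrnpa3 and Hnrnpf were named after their values were seen, since their calls differ between settings or tests. The members, lists and tests were chosen with earlier results of these data known.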

Additional observations from a re-analysis of the deposited data

How the results depend on the processing

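Tra2b kept its call under all alternatives, and Srsf3, Srsf7 and Rbm3 stayed uncalled under all that were run. Values here are adjusted p. Cirbp lost its call with total-count scaling (0.0538), with 6 circadian times as a factor (0.0727) and in JTK_CYCLE (0.456 on TMM CPM, 1.00 on total-count CPM). Tra2a lost it with 6 or 7 time levels as a factor (0.118 and 0.190), without the CT24 pair (0.0718) and in JTK_CYCLE (0.160 and 0.239). Srsf5 gained a call with total-count scaling (0.0484), DESeq2's likelihood ratio test (0.0169), 6 or 7 time levels (0.0127 and 0.0192) and without the CT24 pair (0.0492). The cause was not tested. Leaving out 1 library gave 0.00767 to 0.0786 for Cirbp, 0.00989 to 0.109 for Tra2a, 1.56e-04 to 0.00276 for Tra2b and 0.00567 to 0.214 for Srsf5. The 3 genes called became 1 in both forms of JTK_CYCLE, and 1 to 3 without 1 library (1 without CT4 replicate 1 or CT8 replicate 1). The 1947 transcripts called became 1225 with 7 time levels, 1251 with 1 transcript per gene (fewer tested), 637 and 384 in JTK_CYCLE on TMM and total-count CPM, and 1499 to 2062 without 1 library. The CDS densities of the 7 genes moved beyond their SD only when all transcripts of a gene were added, where shared reads are counted more than once: to 10.2 RPKM for Rbm3, 37.6 for Srsf5 and 29.1 for Srsf7.

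The 5′UTR to CDS ratio gave 0 calls under each alternative. Its test of Rbm3 and Srsf7 could not be run with a minimum of 30 counts, nor that of Rbm3's rhythm with 100, since they fell below these. Same-numbered replicates did not deviate together (21 correlations between time points, from -0.0607 to 0.187, 3 of them over 0.1), so the numbers were not taken as pairs. With the replicate number as a block, adjusted p was 0.0313 for Cirbp, 0.0390 for Tra2a, 8.52e-05 for Tra2b and 0.0778 for Srsf5, with 1916 transcripts called, and no call of the 7 genes changed. Rbm3 (9 to 161 reads per library) and Cirbp (42 to 381) had the lowest mean counts of the 7 genes, which limits their values.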
